A study of Mus musculus with 31 samples.

Results

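The proteins of the large subunit of the cytosolic ribosome were followed gene by gene in ribosome profiling and total RNA libraries of mouse squamous cell carcinoma (SCC) cells. Members were the protein-coding mouse genes whose symbol is Rpl with a number and an optional closing a, l or al, or Rplp with 0, 1 or 2, once the Entrez identifiers of both count tables had been matched to symbols. This gave 51 genes of the 24594 in either table. The table of ribosome-protected fragments (RPF) listed 50 of them and the total RNA table listed 51. The rule uses no measured value.

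All groups came from a skin SCC line labelled HRasG12V:TgfbrIIfl/fl in which the cells' own Eif2s1, the gene of translation initiation factor eIF2α, had been ablated by CRISPR-Cas9 and replaced by a myc-tagged lentiviral copy driven by the PGK promoter. The copy was either wild type (S51), which keeps the serine phosphorylated in the integrated stress response (ISR), or S51A, which cannot be phosphorylated at that site. The study's list of resources gives both the S51 and the S51A line as HRasG12V TgfbrII D/D, while the labels give fl/fl for TgfbrII. The lines were single-cell clones, 2 per genotype in the study's methods, and the clone behind a given library was not named. Cells were given 100 nM bortezomib, a proteasome inhibitor, or DMSO vehicle, for 4.5 h by the labels and 4 h by the methods, and were lysed with cycloheximide, which holds ribosomes on the mRNA. There were 3 RPF libraries of S51 vehicle cells, 4 RPF libraries of each other group and 4 total RNA libraries of every group. A note of the series states that the sample titles of S51 bortezomib and S51A vehicle had been exchanged, and groups follow the corrected titles. The study speaks of these libraries as technical replicates in one place and as biological replicates in others, and the labels do not say which, so p-values measure the spread between these libraries, which may be technical.

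The large subunit joins amino acids at its peptidyl transferase centre and passes the growing chain through the exit tunnel, and its proteins are needed in matched amounts. Messenger RNAs of ribosomal proteins are known to begin with a cytidine and a run of pyrimidines, the 5′ terminal oligopyrimidine (TOP) motif, through which their translation follows the mTORC1 kinase while the mRNA itself is largely kept. Phosphorylation of eIF2α, the step that S51A removes, is known to lower initiation at most mRNAs and to favour a small set with upstream reading frames.

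The start of the mRNA is shown for the members that hold the TOP motif at a RefSeq start and passed the filter on low counts, and for Rpl27a, whose RPF fell the most in S51 cells. Each window holds 10 bases before the annotated start and 20 from it, 5′ to 3′ on the gene's strand (GRCm38.p6, sequence from RefSeq). Capitals mark the run of pyrimidines where the start is a C followed by at least 4 pyrimidines, searched on the gene's strand alone.
Rpl14, chr9:120571507-120571536, plus strand: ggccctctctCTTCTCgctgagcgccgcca
Rpl15, chr14:18270967-18270996, minus strand: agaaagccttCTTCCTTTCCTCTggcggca
Rpl28, chr7:4792955-4792984, plus strand: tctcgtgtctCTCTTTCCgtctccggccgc
Rpl35, chr2:39005112-39005141, minus strand: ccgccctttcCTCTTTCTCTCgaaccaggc
Rpl35a, chr16:33056472-33056501, plus strand: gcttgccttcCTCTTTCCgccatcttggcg
Rpl38, chr11:114668570-114668599, plus strand: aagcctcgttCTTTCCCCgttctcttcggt
Rplp2, chr7:141447641-141447670, plus strand: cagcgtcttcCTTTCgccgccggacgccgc
Rpl27a, chr7:109519185-109519214, plus strand: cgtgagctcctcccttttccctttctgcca
The motif stood exactly at 8 of 46 annotated starts of members (17.4%) and at 2.51% of 32851 starts of 27025 genes. It began within 10 bases of the start at 26 member starts (56.5%) and at 30.7% of all starts, and the start of Rpl27a was one of the former. The eighth member with the motif at its start, Rpl32l, did not pass the filter on low counts. RefSeq starts were not used here for some members, among them Rpl3, Rpl7, Rpl8, Rpl17, Rpl21, Rpl23a, Rpl29, Rpl30, Rpl32, Rpl36 and Rplp1. A match is a description of these letters and not a mapped start in these cells. Among the 7 members with the motif at the start, the log2 change of RPF with bortezomib in S51 cells ran from -1.48 for Rpl28 through -1.23 for Rplp2, -1.21 for Rpl14, -1.14 for Rpl35, -1.03 for Rpl35a and -0.58 for Rpl15 to -0.48 for Rpl38, nearly the whole span of the family.

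Library totals ran from 1038826 to 4902237 counts for RPF and from 18758668 to 22994713 for total RNA, and 3 of the 4 S51 bortezomib RPF libraries were the shallowest (1038826 to 1779622). In total RNA, squamous markers were abundant in every library (Krt5 78588 to 130993 counts, Krt14 95078 to 146096), with Krt17 as an exception at 9 to 97. Their summed level, as CPM on the plain library total, was 13467 to 14239 in S51 vehicle, 14847 to 17216 in S51 bortezomib, 17091 to 17596 in S51A vehicle and 16881 to 18358 in S51A bortezomib. The fibroblast markers Col1a2 and Dcn and the lymphocyte marker Cd3e were at 0 counts in all total RNA libraries, while Pdgfra had 54 to 152 and Kdr 21 to 92. Total RNA of Eif2s1 was 262 to 326 CPM on the same scale in all groups, which does not separate the transgene from the cells' own gene. CPM of the large subunit genes are counts over the library size scaled by its TMM factor.

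1 library stood apart within its group. RPF of S51 vehicle library 2 departed from libraries 1 and 3 along the GC content of the coding sequence, with a Spearman correlation of 0.82 over 45 members and 0.79 over 9397 other genes, as a description over genes that share these 3 libraries. Its log2 departure was -1.23 for Rpl41, -0.91 for Rpl36al, -0.81 for Rpl30 and -0.74 for Rpl36a, and 0.48 for Rpl36 and 0.42 for Rpl28. In RPF libraries of the other groups the departures of members followed GC to varying degrees (Spearman correlations from -0.73 to 0.67), with an SD over members of 0.0581 to 0.141 on the log2 scale against 0.417 for S51 vehicle library 2. Counts of members in comparisons that use the S51 vehicle group are therefore given with all 15 RPF libraries and again without this one, and a value for a single gene rests on all libraries unless stated.

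Of the 51 members, 45 passed the filter on low counts for RPF and for the ratio, and 46 for total RNA. Rpl13a, which also has a role outside the ribosome in silencing inflammatory mRNAs, was tested in total RNA alone, since its RPF were 0 to 2 counts per library against 32619 to 43973 in total RNA. Rpl26, a protein of the tunnel rim, had 0 RPF counts and 0 to 1 in total RNA. The paralogues known from testis, Rpl10l and Rpl39l, had 0 to 1 RPF counts and 0 in total RNA, the muscle paralogue Rpl3l had 0 RPF counts and 0 to 7 in total RNA, and Rpl32l had 0 to 3 in total RNA. A count of 0 allows up to 3 counts in a library, a limit that covers counting error only.

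Genes of this family have many near-identical processed copies in the genome and the files hold uniquely mapped reads, so their counts can understate a gene by an unknown share. Rpl30, which contacts the small subunit, had 216 to 379 counts in total RNA against 91 to 1001 in RPF, and Rpl36al, a paralogue of the E-site protein Rpl36a, had 235 to 355 against 254 to 2054. Rpl23a, a docking site at the tunnel exit, had 4418 to 5935 counts in total RNA and 862 to 9249 in RPF. Levels of these genes and of Rpl13a and Rpl26 are uncertain, and the share of reads lost to near-identical copies was not tested. Changes of Rpl30 and Rpl36al in total RNA, and in the ratio of RPF to total RNA, are uncertain for the same reason.

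Per kilobase of counted coding sequence, RPF in S51 vehicle cells had a median of 3657 CPM over the 45 tested members, and the lowest was Rpl30 at 488 ± 154 (SD, n = 3). Rpl14 followed at 725 ± 89.0 and Rpl36al at 1187 ± 387. At the upper end stood Rpl28 at 6469 ± 1134, Rpl37a at 6684 ± 663 and Rpl13 at 7245 ± 1188, 3 neighbours whose differences lie within their SDs. Rpl41, the shortest protein of the ribosome with 25 residues, reached 45089 ± 18506, from 6 codons left after the ends were trimmed. Those codons allow 198 combinations of start and length, fewer than its highest count of 4983 in 1 library. So some of its counted fragments share both start and length. Whether such fragments come from separate mRNA molecules or are copies cannot be told from the counts. The highest count passed the combinations possible for the gene in 35 of the 45 tested members, Rpl27a and Rpl28 among them. Rpl5 and Rpl11, which enter the subunit as a pair, stood at 2168 ± 758 and 3053 ± 237.

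RPF on members took 7.42% ± 0.167 of all RPF counts in S51 vehicle cells (SD, n = 3) and 3.84% ± 0.214 in S51 bortezomib cells (n = 4). In S51A cells the share was 6.91% ± 0.0991 with vehicle and 5.07% ± 0.288 with bortezomib (n = 4 each). Every bortezomib library lay below every vehicle library in both genotypes. The total RNA shares were 6.76% ± 0.125 with vehicle and 6.87% ± 0.224 with bortezomib in S51 cells and 6.22% ± 0.119 and 7.07% ± 0.134 in S51A cells (n = 4 each), where the S51 groups overlapped and the S51A groups did not. Values here and below are shares of a library, so a fall of all RPF or all RNA per cell together leaves no trace in them, and fewer cells and less RNA per cell cannot be told apart.

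**Figure D1:**
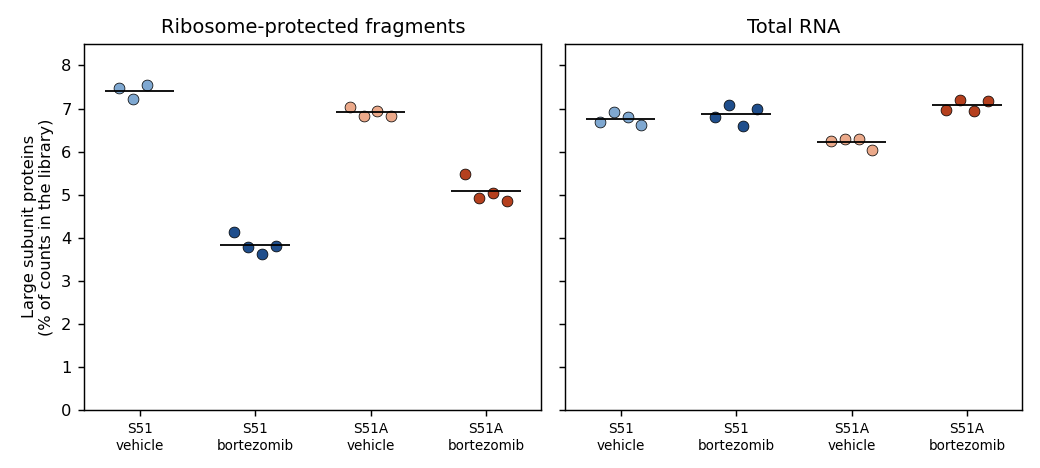
Share of all counts on large subunit ribosomal protein genes (percent, y axis) in each RPF and total RNA library by group, with points for libraries and lines for group means. RPF shares of bortezomib libraries lie below those of vehicle libraries in both genotypes, at a mean of 3.84% in S51 and 5.07% in S51A cells.

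The first comparison asks what bortezomib did to the translation of these mRNAs in cells with an intact ISR. RPF fell for 44 of the 45 tested members in S51 cells and rose for none, with a median log2 change of -0.98, a fall of 49.3%. Of all 9457 genes tested, 16% fell. The fall passed 1.5-fold for 38 members, against 11.2% of all genes, and the median over all genes was 0.00. The exception was Rpl36al at -0.27 ± 0.15, edgeR adjusted p = 0.18. The 4 S51 bortezomib libraries lay wholly below the 3 vehicle libraries for 42 members, which held for 16.5% of all genes, and the groups overlapped for Rpl5, Rpl36al and Rpl41. Each p here and below comes from the quasi-likelihood test of edgeR and is adjusted over all genes by the Benjamini-Hochberg method. With S51 vehicle library 2 left out the count was 45 of 45 with a median of -1.07, beside 15.1% of 9597 genes, and the groups did not overlap for any of the 45, as for 22.3% of genes.

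The P stalk is the arm of the subunit that calls in the elongation factors, built on Rplp0 and carrying Rplp1 and Rplp2, with Rpl12 at its base. All 4 genes fell in S51 cells. Rplp0 stood at 1961, 2471 and 2077 CPM in S51 vehicle libraries and at 1079, 1029, 1048 and 1101 in S51 bortezomib libraries. No bortezomib library reached the lowest vehicle library, and the log2 change was -1.03 ± 0.08, edgeR adjusted p = 1.4e-09. Rplp2 went from 420.4, 482 and 486 to 203, 169.9, 193 and 221 CPM, again without overlap (-1.23 ± 0.09, edgeR adjusted p = 1.9e-09). Rplp1 had 1374, 1659 and 1415 CPM with vehicle and 753, 691, 668 and 723 with bortezomib. Its groups also stood apart, with a log2 change of -1.06 ± 0.08, and Rpl12 fell by a like amount (-1.13 ± 0.07).

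Rpl5 and Rpl11 join the ribosome with the 5S RNA, and when free they are known to bind and block Mdm2, the ligase of p53. Rpl11 stood at 1523, 1326 and 1519.9 CPM in S51 vehicle and 751, 725, 665 and 690.4 in S51 bortezomib libraries, with no overlap and a log2 change of -1.04 ± 0.08, edgeR adjusted p = 1.1e-09. Rpl5 stood at 2112, 1082 and 2232 CPM with vehicle and 1338, 1122, 1256 and 1222 with bortezomib. Here vehicle library 2 lay below all bortezomib libraries while libraries 1 and 3 lay above all of them. Its log2 change was -0.55 ± 0.16, edgeR adjusted p = 0.011 with all libraries and -0.81 ± 0.08, edgeR adjusted p = 1.9e-10 without library 2. The call was lost without vehicle library 1 or 3, with log2 changes of -0.43 and -0.40.

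Around the peptidyl transferase centre, Rpl3, Rpl8, Rpl10 and Rpl27a all fell. Rpl27a had the largest fall of the family in S51 cells, from 2070.5, 2189 and 2241 CPM with vehicle to 721, 716, 639.9 and 718 with bortezomib. The lowest vehicle library lay far above the highest bortezomib library, and RPF fell by 67.8% (-1.63 ± 0.08, edgeR adjusted p = 8.2e-13). Rpl3, whose tip reaches towards the catalytic centre, went from 2445, 2096 and 2480.1 to 1499.6, 1539, 1460.3 and 1517 CPM without overlap, a smaller log2 change of -0.64 ± 0.08. Rpl8 changed by -1.04 ± 0.07 and Rpl10, one of the last proteins to join the subunit, by -0.88 ± 0.08.

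Of the exit tunnel proteins, all 7 that were tested fell (Rpl4, Rpl17, Rpl19, Rpl23a, Rpl31, Rpl35 and Rpl39), from -1.30 for Rpl17 to -0.44 for Rpl19 on the log2 scale. Rpl4, which lines the narrow part of the tunnel, stood at 3572, 2756 and 3706 CPM with vehicle and 1925, 1741, 1759.7 and 1855 with bortezomib, all bortezomib libraries below (-0.88 ± 0.09). Rpl19, which also bridges to the small subunit, stood at 2314, 1975 and 2394 CPM with vehicle and 1691, 1687, 1527 and 1655 with bortezomib. These groups did not overlap either, yet the log2 change of -0.44 ± 0.07, edgeR adjusted p = 8.0e-05 was the second smallest among the 45 members.

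The bridge proteins Rpl24, Rpl30 and Rpl41 fell too. Rpl41 had 987, 427 and 1021 CPM with vehicle and 618, 506, 527 and 523 with bortezomib in S51 cells, where vehicle library 2 lay below the bortezomib libraries and the other 2 above them. Its log2 change was -0.58 ± 0.18, edgeR adjusted p = 0.017, against -0.88 ± 0.08, edgeR adjusted p = 8.3e-12 without library 2, and the call was lost without vehicle library 1 or 3 (-0.42 and -0.41). At the E site, where used tRNA leaves, Rpl36a fell (-0.97 ± 0.14). Its paralogue Rpl36al stood at 353, 194 and 382 CPM with vehicle and 283, 242, 259.7 and 248 with bortezomib, with vehicle library 2 again below the bortezomib libraries, and without that library the change was -0.51 ± 0.08, edgeR adjusted p = 9.0e-06.

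With all libraries, the largest fall next to Rpl27a was that of Rpl28, a protein that baker's yeast lacks. Rpl28 went from 2108, 2750.4 and 2012 to 901, 829.6, 743 and 822 CPM. Every bortezomib library lay under every vehicle library, with a log2 change of -1.48 ± 0.09. Rpl17 (-1.43) came next to Rpl27a (-1.63) without S51 vehicle library 2, and Rpl28 then stood at -1.32. Rpl38, which is known for a part in the translation of Hox mRNAs in the embryo, had the third smallest change with all libraries, from 1066, 759 and 1121 CPM to 748, 742, 654 and 682 (-0.48 ± 0.11). A further 20 members with no role named above also fell. Rpl36 (-1.38 ± 0.10), Rpl37a (-1.36 ± 0.09), Rpl13 (-1.33 ± 0.09) and Rpl14 (-1.21 ± 0.11) fell the most among them. The remaining 16 ran from -1.10 for Rpl32 to -0.58 for Rpl15, with Rpl6, Rpl7, Rpl7a, Rpl9, Rpl10a, Rpl18, Rpl21, Rpl22, Rpl23, Rpl27, Rpl29, Rpl34, Rpl35a and Rpl37 between them.

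Leaving out S51 vehicle library 2 moved the log2 change of RPF in S51 cells by -0.30 for Rpl41 to 0.18 for Rpl36 among the 45 members. The stalk genes then stood at -0.92 for Rplp0, -0.98 for Rplp1, -1.20 for Rplp2 and -1.14 for Rpl12, and Rpl11 at -1.11. Rpl3, Rpl8 and Rpl10 stood at -0.71, -0.96 and -0.96, and the tunnel protein Rpl19 at -0.52. Rpl30 (-1.18) and Rpl36a (-1.18) moved down, as did Rpl24 (-0.85), Rpl38 (-0.63) and Rpl14 (-1.31), while Rpl36 (-1.21), Rpl37a (-1.28) and Rpl13 (-1.19) moved up. Each of these passed the test in both fits.

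**Figure D2:**
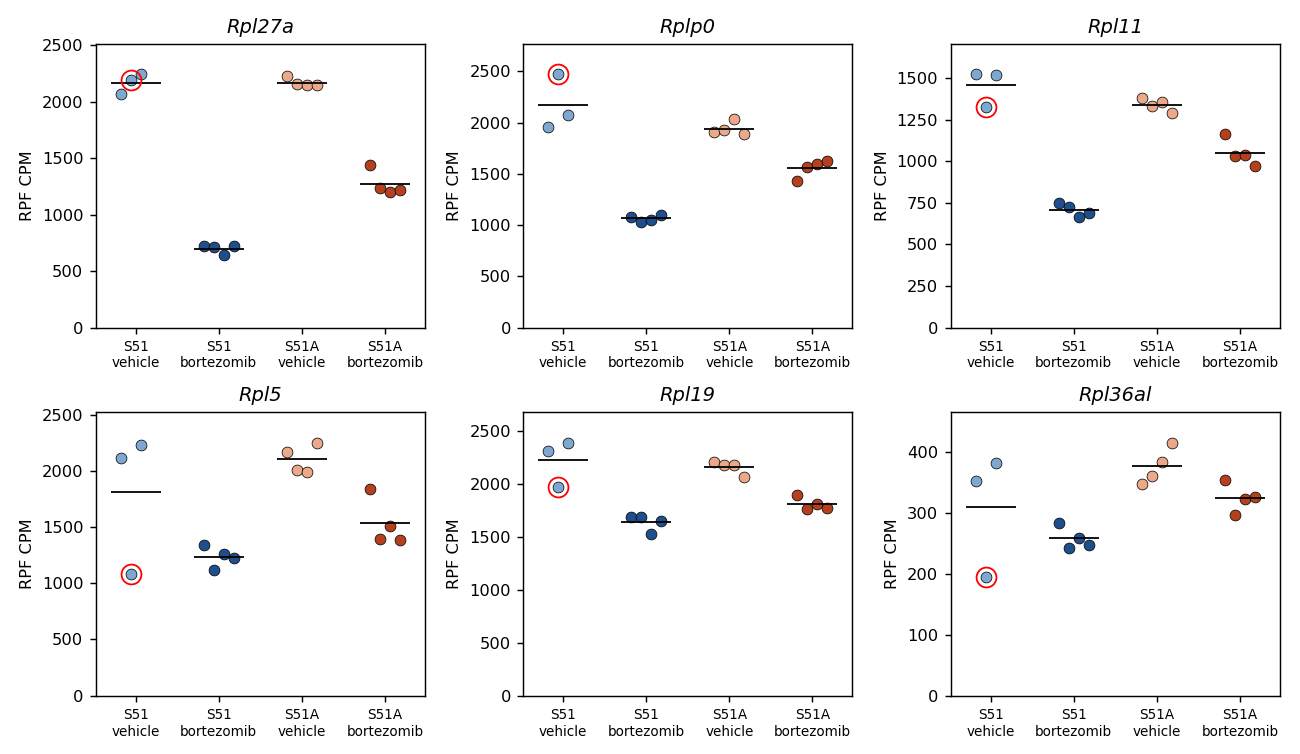
RPF level (CPM, y axis) of Rpl27a, Rplp0, Rpl11, Rpl5, Rpl19 and Rpl36al in each library of the 4 groups, with lines at group means and S51 vehicle library 2 ringed in red. Rpl27a, Rplp0, Rpl11 and Rpl19 show no overlap between S51 vehicle and S51 bortezomib, while for Rpl5 and Rpl36al the ringed library lies below the S51 bortezomib libraries.

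The same treatment in S51A cells, which lack the eIF2α arm of the ISR, lowered RPF for 39 of 45 members and raised none, with a median log2 change of -0.41, a fall of 25.0%. Of all genes tested, 11.4% fell. 7 members passed 1.5-fold in this direction, against 6.67% of all genes. The 6 that did not pass were Rpl22 (-0.37 ± 0.14), Rpl37 (-0.31 ± 0.12), Rpl27 (-0.17 ± 0.06), Rpl36al (-0.21 ± 0.14), Rpl41 (-0.16 ± 0.16) and Rpl38 (-0.16 ± 0.10). The groups did not overlap for 40 members, as for 14.5% of all genes. S51 vehicle library 2 enters here through the filter, the scaling and the shared spread, not through the groups compared. With it left out, 43 passed, beside 16.1% of all genes.

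Rpl27a went from 2224, 2153, 2148 and 2149 CPM in S51A vehicle libraries to 1442, 1236, 1196 and 1219 in S51A bortezomib libraries (-0.77 ± 0.07, edgeR adjusted p = 4.4e-08). Its groups showed no overlap. Rplp0 stood at 1906, 1924, 2034 and 1891 CPM with vehicle and 1429.6, 1569.9, 1599.9 and 1626 with bortezomib, a smaller step of -0.32 ± 0.07 that still left the groups apart. Rpl5 went from 2169, 2009, 1989 and 2250.4 to 1841, 1391, 1511 and 1385 CPM and Rpl11 from 1379.6, 1336, 1354 and 1292 to 1163, 1031, 1036 and 972. Their log2 changes were -0.46 ± 0.15 and -0.35 ± 0.07, both past the test.

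Over the fits without 1 library the S51A count lay between 33 and 43, and 6 members lost their call in some of them. Rpl5 did so without S51A vehicle library 1 or 4 or bortezomib library 2, 3 or 4 (log2 change -0.45 to -0.41), and Rpl30 without S51A vehicle library 2, 3 or 4 or bortezomib library 2, 3 or 4 (-0.45 to -0.39). Rplp1 lost it without S51A vehicle library 3 or 4 or any S51A bortezomib library (-0.23 to -0.20), and Rpl24, a late-joining bridge protein, without S51A vehicle library 1 or 3 or bortezomib library 2, 3 or 4 (-0.30 to -0.27). Rpl7 lost it without S51A vehicle library 4 or bortezomib library 2, 3 or 4 (-0.31 to -0.29), and Rpl7a without S51 bortezomib library 2 or 4, S51A vehicle library 1, 2 or 3 or S51A bortezomib library 2, 3 or 4 (-0.18 to -0.16). S51A bortezomib library 1 worked the other way for Rpl22 and Rpl37, which passed without it (-0.53 and -0.45).

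**Figure D3:**
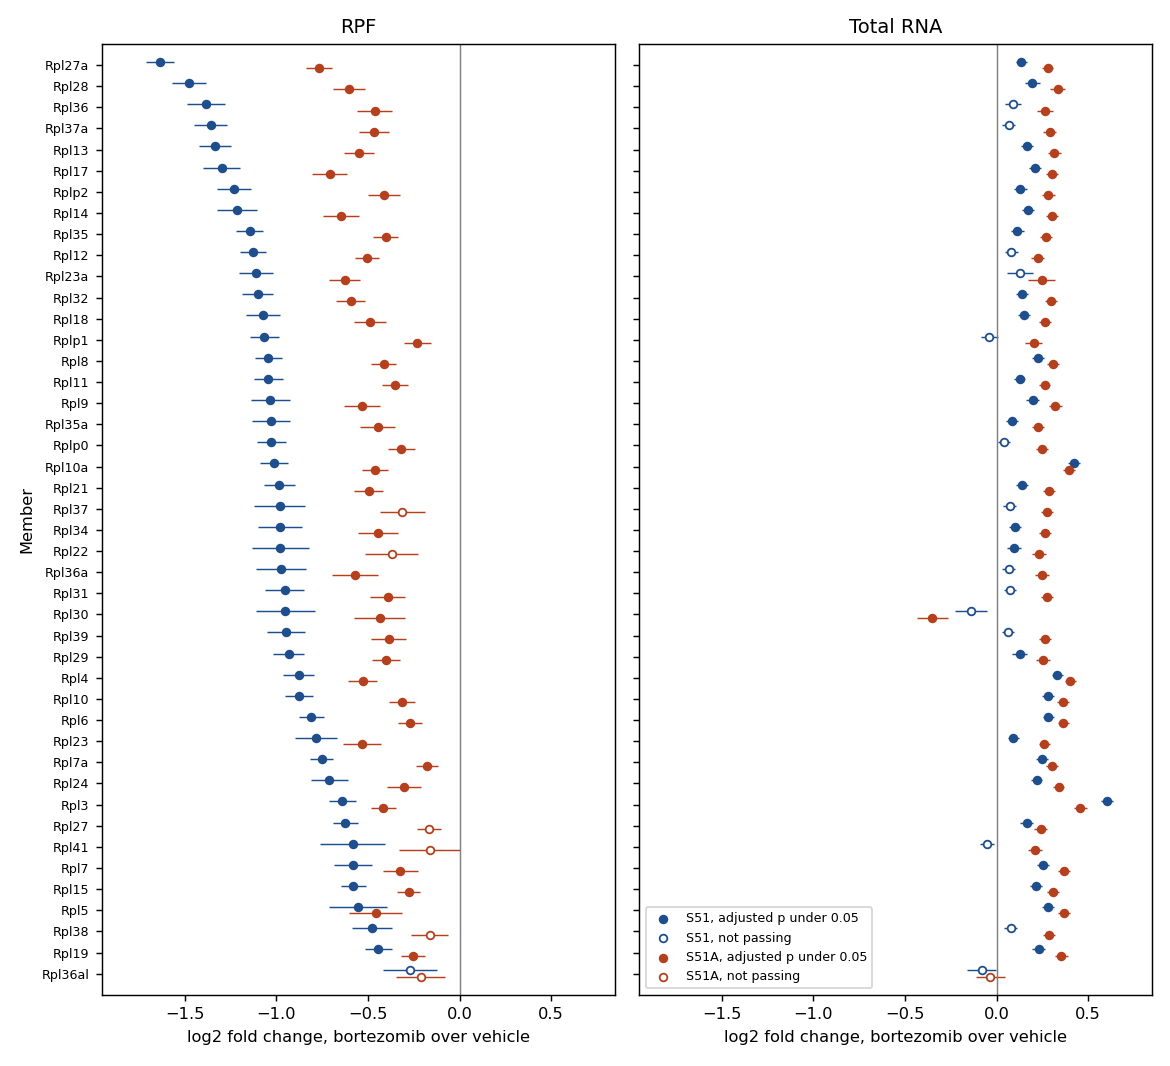
Log2 change with bortezomib ± SE (x axis) of RPF and of total RNA for large subunit genes (y axis, ordered by the RPF change in S51 cells) in S51 and S51A cells, with filled symbols for adjusted p under 0.05. RPF changes lie below 0 throughout, from -1.63 to -0.27 in S51 cells and from -0.77 to -0.16 in S51A cells. Most total RNA changes lie above 0 with the scaling used. In S51 cells this holds less under library sizes alone (10 members called higher and 12 lower), where the median of all genes was -0.16.

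Whether the fall differed between genotypes was tested as the change in S51 cells minus the change in S51A cells. The clone behind a library was not named. So in every comparison of genotypes, an effect of S51A cannot be told apart from differences between single-cell clones. The difference was below 0 for all 45 members, from -0.92 for Rpl36 to -0.06 for Rpl36al with a median of -0.56, and it passed for 28, each with a deeper fall in S51 cells. Of all genes tested, 1.33% passed in that direction. Without S51 vehicle library 2 it passed for 44 members with a median of -0.62, beside 2.48% of all genes, and Rpl36al alone did not pass (-0.30 ± 0.11, edgeR adjusted p = 0.12). The range then ran from -0.86 for Rpl27a to -0.27 for Rpl19. Over all the fits that left out 1 library the count lay between 21 and 44.

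By role, the 4 stalk genes passed this test with all libraries, at -0.71 ± 0.11 for Rplp0, -0.83 ± 0.11 for Rplp1, -0.82 ± 0.13 for Rplp2 and -0.62 ± 0.10 for Rpl12. These stood at -0.61, -0.75, -0.79 and -0.63 without S51 vehicle library 2, and all 4 passed. Rpl11 passed at -0.69 ± 0.11, edgeR adjusted p = 5.9e-04 with all libraries. Its partner Rpl5 did not, at -0.09 ± 0.22, edgeR adjusted p = 0.88, and this value turned positive without S51 vehicle library 1 (0.03) or 3 (0.07) or S51A bortezomib library 1 (0.0069). With library 2 of that group left out, Rpl5 passed at -0.36 ± 0.11, edgeR adjusted p = 0.042. Rpl27a passed at -0.87 ± 0.10 and Rpl28 at -0.87 ± 0.13 (-0.86 and -0.72 without library 2), while none of the 4 bridge genes Rpl19, Rpl24, Rpl30 and Rpl41 passed with all libraries (-0.19, -0.41, -0.51 and -0.42). All 4 passed without library 2, at -0.27, -0.55, -0.75 and -0.72. The tunnel protein Rpl17 passed with all libraries (-0.59 ± 0.14, edgeR adjusted p = 0.024) and lost the call in 7 of the 15 fits without 1 library, namely S51 vehicle library 1, S51 bortezomib library 2, 3 or 4 and S51A vehicle library 2, 3 or 4 (-0.59 to -0.52).

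The genotype difference under bortezomib uses the S51 vehicle libraries only to set the filter, the scaling and the spread. It gave lower RPF in S51 than in S51A cells for 39 of 45 members and higher for none (median -0.55). Of all genes, 16.6% were lower. The S51 bortezomib libraries lay wholly below the S51A bortezomib libraries for 43 members, which held for 17.9% of genes, with overlap for Rpl4 and Rpl23. Rpl30 had the largest difference (-0.97 ± 0.15), with 79.2, 86.9, 61.5 and 72.1 CPM in S51 and 162, 140.1, 143 and 131 in S51A cells, followed by Rplp2 (-0.91 ± 0.09) and Rpl27a (-0.87 ± 0.07). Rpl4 showed a log2 difference of 0.02 ± 0.08, edgeR adjusted p = 0.89. This comparison shares its bortezomib libraries with the comparisons above. The count was 44 without S51 vehicle library 2, beside 20.7% of all genes.

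With vehicle, the median log2 difference in RPF of S51 over S51A cells was 0.01 over the 45 members. RPF was higher in S51 cells for 5 members and lower for 1, against 13.8% and 14.8% of all genes. Among the higher ones were Rpl13 (0.52 ± 0.09), Rpl36 (0.41 ± 0.10), Rpl18 (0.39 ± 0.09) and Rpl4 (0.37 ± 0.09), and Rpl30 was the lower one (-0.46 ± 0.15). Without S51 vehicle library 2, 7 were higher and 0 lower by edgeR with 11 of 45 values below 0, beside 13.5% and 15.2% of all genes, and Rpl30 (-0.24 ± 0.10, edgeR adjusted p = 0.062) did not pass. Rpl4, Rpl13, Rpl18 and Rpl36 kept the call at 0.49, 0.38, 0.24 and 0.23. Without S51 vehicle library 3 the count was 10, of which 8 were higher, and Rpl30 also lost its call without S51A vehicle library 3 (-0.43) or 4 (-0.44).

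Rpl13 stood at 3736, 4961 and 3822 CPM in S51 and 2975, 2843, 3113 and 2738 in S51A vehicle libraries, and Rpl4 at 3572, 2756 and 3706 and 2657, 2544, 2612 and 2560.0. For both genes the S51 libraries lay wholly above. Total RNA of the same genes was also higher in S51 vehicle cells (0.42 ± 0.03 for Rpl13 and 0.59 ± 0.03 for Rpl4).

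Total RNA of the members did not fall with RPF. In S51A cells it rose with bortezomib for 44 of 46 members and fell for 1, with a median log2 change of 0.28, and 27.5% of all 11708 genes tested rose. In S51 cells it rose for 32 members and fell for none, with a median of 0.13 and 29.7% of all genes rising. With library sizes alone as the scaling, 10 members were called higher and 12 lower. The share of all genes called under that scaling is not given here. The bortezomib libraries lay wholly above the vehicle libraries for 28 members in S51 cells (as for 26.8% of genes) and 44 in S51A cells (24.3%). The median log2 change of all genes in S51 cells was -0.16 with library sizes alone against -0.01 with TMM scaling, and the members' median lay 0.14 above the median of all genes under both scalings.

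Rpl3 rose the most in both genotypes. Its total RNA stood at 1799, 1898, 1853 and 1889 CPM with vehicle and 2769, 2959.7, 2747 and 2806 with bortezomib in S51 cells (0.60 ± 0.03, edgeR adjusted p = 1.4e-13). In S51A cells it went from 1731, 1785, 1768 and 1729 to 2302, 2521, 2327 and 2477 CPM (0.46 ± 0.03), and neither pair of groups overlapped. After Rpl3, the rises in S51 cells were led by Rpl10a (0.42 ± 0.03) and Rpl4 (0.33 ± 0.03). Rpl30 went against the family, with 17.3, 17.5, 18.6 and 15.3 CPM in S51A vehicle and 13.8, 11.1, 14.3 and 14.6 in S51A bortezomib libraries, wholly lower (-0.35 ± 0.09, edgeR adjusted p = 0.0012), on few counts. The share of Rpl30 reads lost to near-identical copies was not tested, so this fall is uncertain. Rpl36al showed -0.03 ± 0.08 in S51A cells and did not pass.

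Of the stalk genes, Rplp0 stood at 5532, 5726, 5713 and 5383 CPM with vehicle and 5707, 5982, 5488 and 5817 with bortezomib in S51 cells, overlapping groups with a log2 change of 0.04 ± 0.03, edgeR adjusted p = 0.31. In S51A cells Rplp0 went from 5093, 5255, 5219 and 4771 to 6002, 6146, 5903 and 6103 CPM, with no overlap (0.25 ± 0.03). Rpl27a, the gene with the deepest loss of RPF in S51 cells, had total RNA of 1917, 2024, 1984 and 1947 CPM with vehicle and 2158, 2228, 2051 and 2208 with bortezomib there. Its total RNA rose (0.14 ± 0.03), with the bortezomib libraries above the vehicle libraries.

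The change of total RNA with bortezomib was lower in S51 than in S51A cells for 25 of 46 members and higher for 1, Rpl3 (0.14 ± 0.05, edgeR adjusted p = 0.031), with a median difference of -0.14. Of all genes, 9.58% differed in the first direction and 12% in the second. Rpl41 (-0.26 ± 0.06) and Rplp1 (-0.24 ± 0.07) differed the most. The total of 26 fell to 15 without S51 vehicle library 2 or S51 bortezomib library 3 of total RNA and to 17 without S51A bortezomib library 2, and Rpl3 lost its call without S51 vehicle library 1 or 3, S51 bortezomib library 2, S51A vehicle library 2 or 3 or S51A bortezomib library 1 or 3 (0.12 to 0.14), and also with library sizes alone (edgeR adjusted p = 0.075). With vehicle, total RNA was higher in S51 than in S51A cells for 32 members and lower for Rpl7a (-0.16), Rpl12 (-0.11), Rpl35 (-0.21) and Rpl30 (-0.27), against 32.4% and 31.4% of all genes. Rpl4 (0.59) and Rplp1 (0.54) were the furthest apart. With bortezomib 8 were higher and 12 lower, beside 32.4% and 33.3%, from -0.37 for Rpl35 to 0.52 for Rpl4.

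Across the members, the change of total RNA with bortezomib followed the length of the protein, with a Spearman correlation of 0.74 in S51 and 0.61 in S51A cells over 46 members. Over 11191 other genes the same correlations were 0.16 and -0.05. The change also correlated with the level of total RNA (log2 CPM), at 0.51 in S51 and 0.45 in S51A cells over the members. Over the other genes the correlations with level were 0.22 and 0.18. Length and level were not separated. These are descriptions over genes that share the same libraries. Within groups, the departure of single total RNA libraries from the rest of their group followed length with correlations between -0.51 and 0.33, and the part of that in the result was not tested. The 403 residues of Rpl3 went with the largest rise, and the 25 residues of Rpl41 with -0.05 ± 0.04 in S51 cells.

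Translation efficiency (TE), taken as the change of RPF relative to the change of total RNA in 1 model over all 31 libraries, fell with bortezomib for 43 of 45 members in S51 cells and rose for none. The median log2 change was -1.12, and 7.27% of all genes fell. Rpl27a fell the most (-1.77 ± 0.08, edgeR adjusted p = 4.1e-19), then Rpl28 (-1.67 ± 0.10), whereas Rpl17 (-1.64) came before Rpl28 (-1.52) without S51 vehicle library 2. Rpl36al (-0.20 ± 0.18, edgeR adjusted p = 0.54) and Rpl41 (-0.54 ± 0.19, edgeR adjusted p = 0.066) did not pass, although Rpl41 did without S51 bortezomib library 1 of RPF (-0.60). All 45 passed without S51 vehicle library 2 (median -1.22, beside 6.95% of genes).

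In S51A cells TE fell for 42 of 45 members (median -0.69), against 1.24% of all genes. Rpl27a had a log2 change of -1.04 ± 0.07, edgeR adjusted p = 1.2e-12. Rpl30 (-0.08 ± 0.16), Rpl36al (-0.18 ± 0.17) and Rpl41 (-0.37 ± 0.18) did not pass, and Rpl30 stood at 0.0044 with library sizes alone. TE of Rpl30 and Rpl36al rests on few total RNA counts. The count was 43 without S51 vehicle library 2, beside 1.63%. The difference between genotypes passed for 17 members, each with a deeper fall in S51 cells (median -0.45), beside 1.5% of all genes, and for 35 without S51 vehicle library 2 (median -0.49), beside 2.46%. Among them with all libraries were Rpl36 (-0.74 ± 0.16), Rpl27a (-0.73 ± 0.11), Rpl28 (-0.73 ± 0.14) and Rplp2 (-0.66 ± 0.13). Rpl5 stood at -0.01 ± 0.23, edgeR adjusted p = 0.99.

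Under bortezomib itself, TE was lower in S51 than in S51A cells for 37 members (median -0.51), against 5.09% of genes, and for 42 without S51 vehicle library 2 (7.4%). Rplp1 had the largest difference (-1.02 ± 0.09, edgeR adjusted p = 4.1e-10). With vehicle 1 member passed, again Rplp1 (-0.42 ± 0.09, edgeR adjusted p = 0.036), against 0.0743% of genes. Its total RNA with vehicle was 2395, 2381, 2279.9 and 2039.9 CPM in S51 and 1565, 1579.5, 1645 and 1456 in S51A cells, wholly apart, while RPF were 1374, 1659 and 1415 and 1258, 1331, 1438 and 1429 CPM. That call was lost in 5 of 9 other settings and in 11 of 31 fits without 1 library (-0.44 to -0.37), namely RPF of S51 vehicle library 1, S51A vehicle library 2, 3 or 4 or S51A bortezomib library 2, and total RNA of S51 vehicle library 1, 2 or 3 or S51A vehicle library 1, 2 or 4. It stood at -0.51 ± 0.08, edgeR adjusted p = 6.6e-04 without S51 vehicle library 2, where 1 member passed beside 0.0732% of genes.

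**Figure D4:**
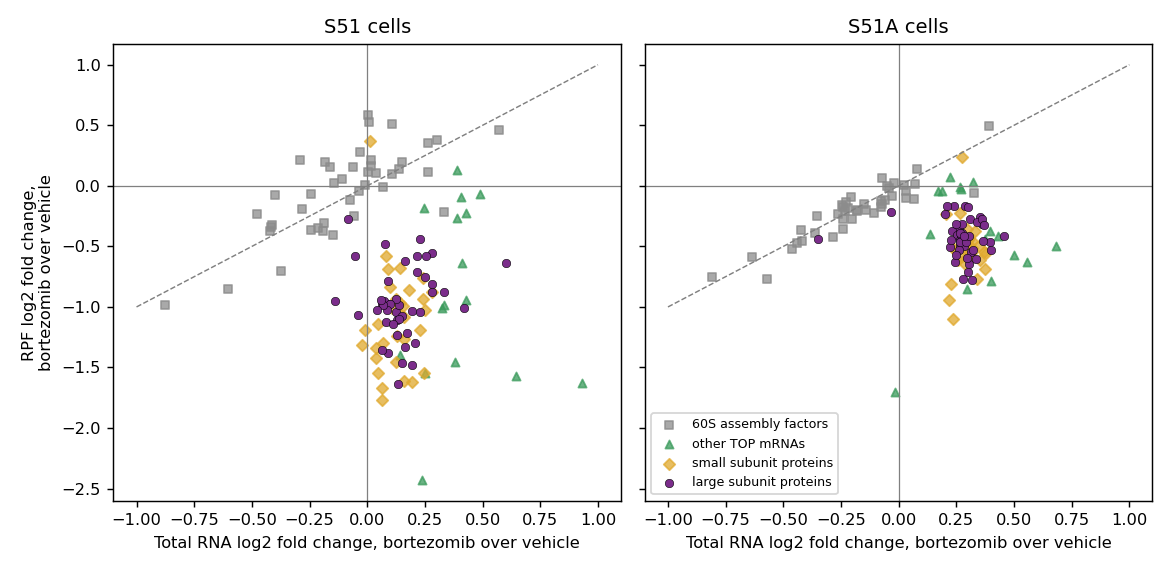
Log2 change of RPF (y axis) against log2 change of total RNA (x axis) with bortezomib in S51 and S51A cells, for large subunit genes, small subunit genes, other TOP mRNAs and assembly factors of the large subunit, with a dashed line of equal change. The tested large subunit genes all lie below the line in both panels, at a median TE change of -1.12 in S51 cells, and the assembly factors lie around it at 0.07.

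The other genes of the pathway give the setting. Of 32 small subunit genes, RPF fell for 31 in S51 cells (median -1.11) and 28 in S51A cells (-0.53), beside 16% and 11.4% of all genes, and values in S51 cells ran from -1.77 for Rps27 to 0.37 for Rps27l. Of 16 other TOP mRNAs, which encode elongation and initiation factors and like proteins, RPF fell for 10 in each genotype (medians -0.97 and -0.41), with Pabpc1, the poly(A)-binding protein, at -2.43 and Eif3e at 0.13 in S51 cells. Their TE fell for 14 in S51 and 11 in S51A cells, beside 7.27% and 1.24% of all genes. The 42 assembly factors of the large subunit, which build it in the nucleolus and are not themselves part of it, had RPF higher for 6 and lower for 11 in S51 cells (median 0.02), where 14.8% of all genes were higher and 16% lower. In S51A cells they were higher for 1 and lower for 7 (-0.17), beside 9.27% and 11.4%. Their TE rose for 4 and fell for 1 in S51 cells, beside 2.38% and 7.27%, and none passed in S51A cells by edgeR. Differences between these lists and the large subunit genes were not tested.

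With S51 vehicle library 2 left out, RPF in S51 cells fell for 31 small subunit genes (median -1.15) and 13 of the other TOP mRNAs (-0.90), beside 15.1% of all genes. The assembly factors were then higher for 3 and lower for 11 (-0.02), where 15% of all genes were higher.

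Other genes outside the naming rule are related to the family. Rpl22l1, a paralogue of Rpl22, changed by -1.08 in S51 cells (edgeR adjusted p = 0.012), and by -1.44 without S51 vehicle library 2. Rpl7l1, which works in assembly, stood at -0.14 (edgeR adjusted p = 0.29), and at -0.18 without that library.

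The GC content of the coding sequence was set against the changes of RPF as a description over genes that share libraries. The difference in response between genotypes correlated with GC at -0.60 over 45 members and -0.39 over 9397 other genes with all 15 libraries, and at -0.11 and -0.05 without S51 vehicle library 2. The change in S51 cells gave -0.44 and -0.36 with all libraries and -0.08 and -0.11 without it. In S51A cells the correlations were 0.03 and -0.09. So the order of members by their genotype difference, with Rpl36 first and Rpl5 and Rpl36al last, moved with this 1 library, whereas the sign of the difference stayed below 0 for all 45 members with and without it.

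**Figure D5:**
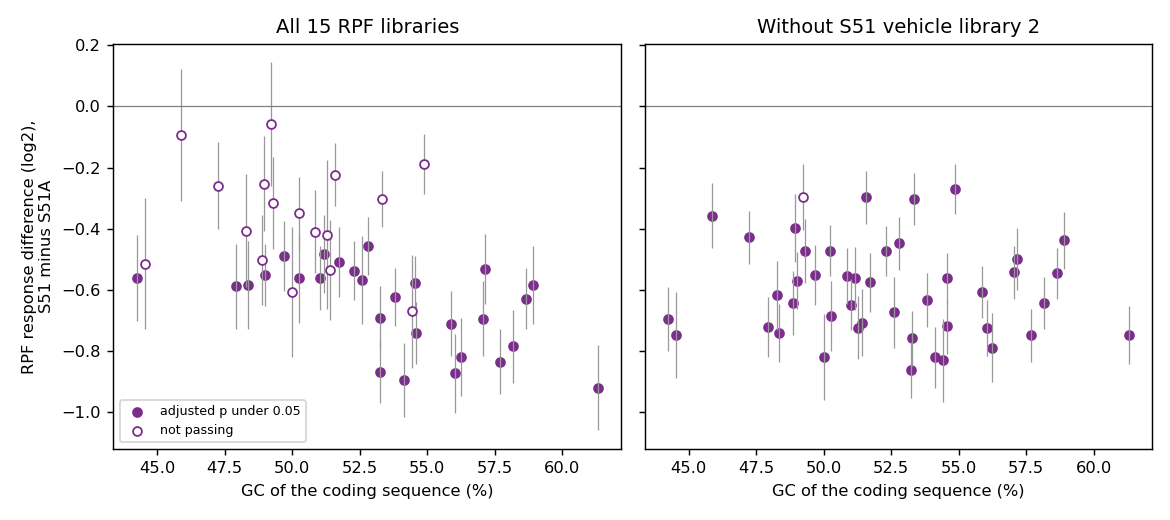
Difference in RPF response between genotypes (log2 change in S51 minus S51A, y axis) against GC content of the coding sequence (percent, x axis) for the 45 tested members, with all 15 RPF libraries and without S51 vehicle library 2. The downward slope with all libraries (Spearman correlation -0.60) is nearly flat without that library (-0.11), and all values stay below 0.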

How the data were processed

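The authors deposited raw counts per gene for 15 RPF and 16 total RNA libraries. Per the labels' processing notes, reads were handled with Bowtie2, featureCounts and DESeq2 on mm10, without versions. The study's methods count RPF of 20 to 23 or 26 to 32 nt over coding sequence, without the first 15 and last 5 codons. Per the file headers, ribosomal RNA reads were removed, duplicates were marked, repeats were masked and unique alignments of mapping quality 50 were kept. Total RNA runs were merged.

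Entrez identifiers matched a symbol for 20687 of 20704 RPF genes and 24569 of 24593 total RNA genes. No column belonged to a sample of another series. Counts with TMM scaling were tested in R 4.3.3 with edgeR 4.0.16 (filterByExpr, quasi-likelihood, limma 3.58.1) over all genes and all 4 groups of a kind, with Benjamini-Hochberg adjustment and a threshold of 0.05. CPM are counts divided by the scaled library size and brought to a common total. TE was the interaction of library kind and group. DESeq2 1.42.0 was an alternative, beside other scalings, other filters, the compared groups alone, a replicate block and each library left out. The fits were also run on simulated counts with the same spread set for every gene. No simulated library was skewed by GC, so that effect was not tested there. Replicates differed by more than counting noise (chi-square per gene at least 2.78 in total RNA and 1.66 in RPF).

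The members and lists were chosen with earlier results of these data known. All members enter the counts, with libraries shown for role lists and for the largest and smallest changes. Some genes are not reported here. The fits without S51 vehicle library 2 were singled out after the data had been seen.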

Additional observations from a re-analysis of the deposited data

Results flagged for a closer look

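Among 126 groups of 4 libraries tested for a library far from the others, 9 held one, where chance gives about 1 in 20. In RPF these were Rpl27a in S51A bortezomib library 1 (1442 CPM, the others at 1196 to 1236), in S51A vehicle library 1 (2224, the others at 2148 to 2153) and in S51 bortezomib library 3 (639.9, the others at 716 to 721), Rpl3 in S51A bortezomib library 1 (1942, the others at 1622 to 1661) and Rpl19 in S51A vehicle library 4 (2073, the others at 2186 to 2206). In total RNA these were Rpl13 in S51A bortezomib library 2 (1735 CPM, the others at 1582 to 1595), Rpl19 in S51A vehicle library 4 (1762, the others at 1854 to 1862), Rpl5 in S51A vehicle library 1 (2619.5, the others at 2657 to 2661) and Rplp2 in S51 bortezomib library 3 (990.3, the others at 1073 to 1080.5).

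The bortezomib response of 9 of the members with values by library differed between S51 and S51A cells in RPF by the interaction test of edgeR. The log2 differences were -0.92 for Rpl36, -0.87 for Rpl28, -0.87 for Rpl27a, -0.83 for Rplp1, -0.82 for Rplp2, -0.78 for Rpl13, -0.71 for Rplp0, -0.69 for Rpl11 and -0.62 for Rpl12. In TE the same test gave -0.74 for Rpl36, -0.73 for Rpl28, -0.73 for Rpl27a, -0.66 for Rplp2, -0.63 for Rpl13, -0.59 for Rplp1, -0.56 for Rpl11, -0.50 for Rplp0 and -0.48 for Rpl12. The RPF values rest in part on S51 vehicle library 2, in which GC-rich members stood higher and GC-poor members lower than in libraries 1 and 3. The members with values by library were chosen in part for large or small changes in these data. Of all 45 tested members, 28 passed in RPF and 17 in TE, each lower in S51 cells. Of all genes, 1.33% and 1.5% passed in that direction.

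In total RNA, 25 of all 46 tested members had a lower response in S51 than in S51A cells and 1 a higher one. Of all genes, 9.58% were lower and 12% higher. Among the members with values by library, the response differed for 11. It was -0.26 for Rpl41, -0.24 for Rplp1, -0.21 for Rpl38, -0.21 for Rplp0, -0.18 for Rpl36, -0.15 for Rplp2, -0.15 for Rpl13, -0.14 for Rpl12, -0.14 for Rpl27a and -0.14 for Rpl11, and 0.14 for Rpl3.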

How the results depend on the processing

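Counts of members that passed were recomputed under other scalings, filters, tools and sample sets, and 13 of 15 stayed within 1.5 times and kept their direction in every setting other than leaving out a library. One exception was total RNA in S51 cells with library sizes alone, where 22 members passed, 10 of them higher and 12 lower, and the median of all genes was -0.16 against -0.01. The other was TE with vehicle, where 1 member passed and 0 did with RLE size factors, library sizes alone, no filter beyond 1 count, at least 10 counts in every library or only the groups compared, and the cause was not tested. With library sizes alone the median log2 change of members was also -0.02 (total RNA, S51), 0.17 (total RNA, S51A), -0.08 (total RNA, genotypes with bortezomib), -0.18 (total RNA, response difference), -0.96 (TE, S51) and -0.41 (TE, genotypes with bortezomib), and TE of Rpl30 in S51A cells changed sign (0.0044). Of 176 results on single genes, 152 kept call and direction in all settings, 23 changed call without 1 library and 14 under another setting. Without 1 library, the members passing numbered 42 to 45 (RPF, S51), 33 to 43 (RPF, S51A), 5 to 10 (RPF, vehicle), 34 to 44 (RPF, bortezomib), 21 to 44 (RPF, response difference), 30 to 36, 45 to 45, 28 to 37, 19 to 21 and 15 to 29 in the same order for total RNA, and 43 to 45, 40 to 43, 0 to 3, 35 to 42 and 16 to 35 for TE. The RPF response difference of Rpl5 ran from -0.357 to 0.066 and reversed without S51 vehicle library 1 (0.031) or 3 (0.066) or S51A bortezomib library 1 (0.0069).

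The labels name nothing that same-numbered libraries share, and they were not treated as pairs, since not every pair correlated above 0.1. The deviations of same-numbered libraries correlated at -0.16 to 0.26 in RPF (median 0.03, against -0.02 for different numbers) and at 0.00 to 0.19 in total RNA (median 0.09, against -0.03), where all 24 pairs lay above 0, a hint from the data and not from the design. A replicate block gave 44, 41, 6, 41 and 27 members passing in RPF, 37, 45, 37, 22 and 33 in total RNA and 44, 42, 1, 39 and 19 in TE, each within 1.5 times of the fit without it. By the study, total RNA was saved from lysates whose remainder gave the RPF, and the main TE fit did not pair these libraries. The deviations of RPF and total RNA libraries of the same group and number correlated at -0.06 to 0.35. A block by lysate gave 43, 41, 1, 37 and 15 in TE.

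A count of 0 allows up to 3 counts in a library, so lower levels of the paralogues Rpl3l, Rpl10l and Rpl39l were not detectable in RPF at this depth. Rpl26 and Rpl13a also had RPF at or near 0, and the part of reads that map to near-identical copies in this was not tested.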
